A study of Mus musculus with 12 samples.

Results

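The genes described here encode the classical axon guidance cues and their receptors: the ephrins and Eph receptor kinases, the Slits and Robos, the netrins and netrin-Gs with the netrin receptors Dcc, Neo1 and Unc5a to Unc5d, the class 3 semaphorins, and the repulsive guidance molecules Rgma and Rgmb. Members were chosen by gene symbol, as every protein-coding gene whose name in the deposited RPKM table follows the naming of these families. This gave 48 genes of the 49585 in the table: 5 A ephrins, 3 B ephrins, 9 EphA receptors, 5 EphB receptors, 3 Slits, 3 Robos, 5 netrins and netrin-Gs, 6 netrin receptors, 7 class 3 semaphorins and 2 RGMs.

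Nuclei labelled as microglia-specific were taken from C57BL/6 mice with a spinal cord injury at 3, 7 or 14 days and from sham mice, whose labels give 7 days. Each group had 3 libraries, and each library pooled the cords of 3 animals over 5 mm to either side of the injury. An iodixanol gradient was used to separate nuclei, GFP-positive nuclei were then bound by antibody to magnetic beads, and their RNA was amplified by single primer isothermal amplification before sequencing. The labels name neither the GFP line nor the promoter that drives it, give no age, and describe no other allele or agent. By the labels, sham and injured animals differ in the injury and its time, and whether they differ otherwise is not known. As sham labels give 7 days alone, only the 7-day comparison with sham is matched in time by the labels.

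Guidance cues are secreted or membrane-bound proteins that steer growing axons and migrating cells by attraction or repulsion. In the developing spinal cord they set where axons cross the midline and which targets they reach, and several are known as inhibitors of axon growth in the injured adult cord. Ephrins signal through Eph receptor tyrosine kinases at cell contacts, Slits repel through Robos, netrins attract through Dcc and repel through Unc5 receptors, and class 3 semaphorins repel through neuropilins and plexins. Endothelial cells, pericytes, glia and neurons use members of these families too, for example Ephb4 and ephrin-B2 in veins and arteries.

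Total counts ran from 4003480 to 10670804 per library, and 18451 genes passed the filter on low counts. The defining markers of microglia were present in every library: all 14 symbols of the list, which include P2ry12, Tmem119, Cx3cr1 and Sall1, had counts in all 12 libraries, and their summed level was 5466 to 7157 CPM (the usual unit of counts scaled to the library's total) in sham, 3984 to 4905 at 3 days, 5741 to 6679 at 7 days and 4924 to 6041 at 14 days. RNA of other cells was present as well. The 13 astrocyte markers summed to 730.1, 1893 and 5424 CPM in sham replicates 2, 3 and 4, and sham replicate 4 also stood above the other 2 sham libraries in neuron, endothelial and fibroblast markers. Among the 3-day libraries, replicate 3 held the highest sums of endothelial markers (970.2 CPM) and of fibroblast and pericyte markers (946.7 CPM). For each member call it is said below whether it held without these 2 libraries, and counts of some marker lists are also given without sham replicate 4. In pooled nuclei, fewer cells of a type and less RNA per cell cannot be told apart, and nothing in the labels says how the pools differ beyond the injury, so p-values here measure the spread between pooled libraries.

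Guidance genes were expressed at low levels in these nuclei. The deposited RPKM scale divides by gene length, so genes can be compared as far as the lengths used there hold. On it Rgmb (a co-receptor for bone morphogenetic proteins) had the highest sham level at 7.54 ± 3.42 (SD, n = 3). Next came Neo1 (neogenin, a receptor for RGMs and netrins) at 6.69 ± 2.08, Efnb3 (ephrin-B3, a membrane-bound ligand) at 4.62 ± 2.83 and Epha1 at 3.67 ± 1.02. The ranges of these leading genes across the 3 sham libraries overlapped, so their order was not larger than the spread between libraries. The rank of Rgmb also depends on the length used. In the annotation used here for positions, Rgmb and Neo1 have exon lengths of 7669 and 8716 bases. Their sham means were 20.1 and 61.7 CPM (scaled by TMM), so by these lengths Rgmb would lie below Neo1. Efnb3, Epha1 and Ntng1 have exon lengths of 3183, 3928 and 8243 bases and sham means of 14.9, 14.9 and 23.8 CPM. By these lengths Rgmb would lie below them too. On the deposited scale Ntng1 followed Epha1 at a sham RPKM of 2.74 ± 0.54, and Robo1 came next at 2.28 ± 1.04. At the other end, Sema3g had a sham RPKM of 0.065 ± 0.039 and Efna1 0.045 ± 0.078. Of the 48 members, 41 passed the filter on low counts and were tested. Efna1, Efna2, Efna4, Epha3, Epha8, Ntn5 and Robo3 did not pass it. Ntn5 had 0 counts in all 3 libraries at 7 days and at 14 days, and Robo3 had 0 counts in all 3 libraries at 14 days, where 3 counts, the limit that a count of 0 allows, correspond to 0.452 to 0.701 CPM per library (counting error only).

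**Figure D1:**
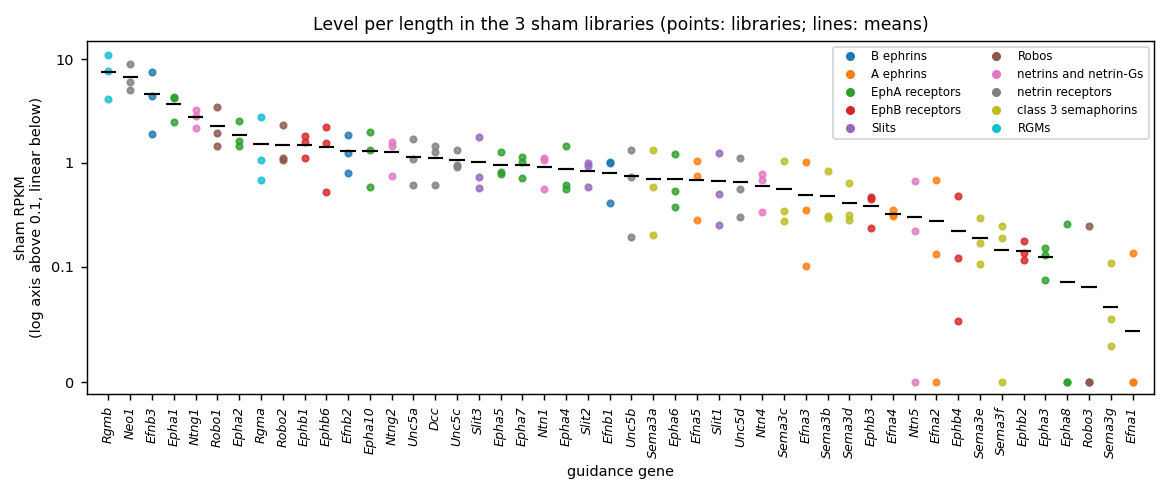
Level of each of the 48 guidance genes in sham (y axis, deposited RPKM, logarithmic above 0.1 and linear below), ordered by mean; points are the 3 sham libraries, coloured by family, and lines are means. On this scale Rgmb and Neo1 lead at means of 7.54 and 6.69, and Sema3g and Efna1 are lowest at 0.065 and 0.045. The rank of Rgmb depends on the gene length used.

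At 3 days after injury 3 of the 41 tested members differed from sham: Ephb4 and Sema3g rose and Ntng1 fell. Of all tested genes 20.0% were called in that comparison, 10.9% higher and 9.17% lower, a larger share than among the members, and the median log2 fold change of the 41 members was 0.13 beside -0.03 over all tested genes. At 7 days 8 members fell and 0 rose (Epha5, Epha7, Neo1, Ntng1, Robo1, Robo2, Sema3a and Slit2), where 4.67% of all tested genes fell, 4.61% rose and 9.28% were called in either direction. The median of the members at 7 days was -0.82 beside 0.01 over all genes, with 33 of 41 fold changes negative. At 14 days 3 rose (Ephb4, Sema3b, Sema3g) and 5 fell (Dcc, Epha10, Ntng1, Slit2, Unc5c), where 9.82% of all genes were called, 5.02% higher and 4.79% lower. The median at 14 days was -0.12 beside -0.05 over all genes. The 3 comparisons share the sham libraries and are not independent of each other. All of these calls are adjusted p-values under 0.05 from edgeR's quasi-likelihood test over all 18451 tested genes.

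The same pattern appeared in the libraries themselves. Summed over all 48 members, the level was 371.0, 364.9 and 471.1 CPM (scaled by TMM, as are all member levels in CPM below) in sham, 405.9, 324.0 and 470.1 at 3 days, 231.1, 189.3 and 261.3 at 7 days, with 353.4, 364.9 and 308.5 at 14 days. Every 7-day library lay below every other library. At 7 days 14 of 41 members had all 3 libraries below all 3 sham libraries and 0 had them above, where 22.8% of all tested genes did not overlap in either direction. At 3 days 5 members lay wholly above sham and 2 wholly below (34.2% of all genes did not overlap), and at 14 days 5 lay above and 7 below (29.7%). With 3 libraries against 3, the smallest p that an exact two-sided permutation test allows for a single gene is 0.1, so the calls rest on the spread shared across genes.

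Between the injury times, 11 of 41 members were lower at 7 than at 3 days and 0 were higher, where 7.52% of all tested genes were called lower, 5.85% higher and 13.4% in either direction. The members' median log2 difference was -0.88 beside 0.01 over all genes, and 23 of 41 had all 7-day libraries below all 3-day libraries, where 39.7% of all genes did not overlap. From 7 to 14 days 4 members rose (Ephb4, Rgma, Sema3b, Sema3c) and 1 fell (Epha2), where 2.19% of all genes were called, 1.35% higher and 0.835% lower. The median was 0.44 beside -0.05, and 14 members lay wholly above and 3 wholly below their 7-day libraries, where 30.7% of all genes did not overlap. From 3 to 14 days 4 members fell (Dcc, Epha10, Epha2, Slit2), where 5.14% of all genes were called lower, 2.17% higher and 7.31% in either direction. In that comparison 3 members lay wholly above and 10 wholly below, where 43.1% of all genes did not overlap. In the test of any difference between the 4 groups 16 of 41 members passed, where 26.4% of all tested genes did.

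**Figure D2:**
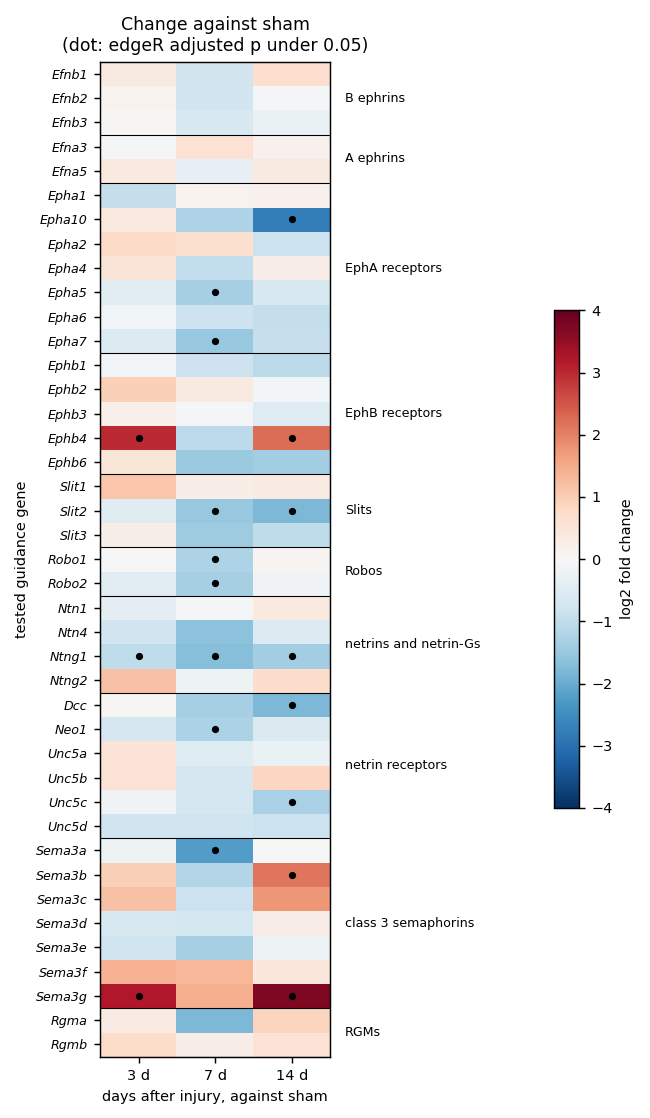
Log2 fold change against sham (colour, from -4 in blue to 4 in red) of the 41 tested guidance genes (rows, grouped by family) at 3, 7 and 14 days (columns); a dot marks an edgeR adjusted p under 0.05. The 7-day column is blue for 33 of 41 genes, with 8 dots that are all decreases, while Ephb4 and Sema3g are red with dots at 3 and 14 days.

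The number of calls depended on single libraries and on the fit. Of 39 calls over the 6 pairwise comparisons, 7 passed with each of the 12 libraries left out in turn: Ephb4 at 3 days against sham and at 7 days against 3 days, Epha10 at 14 days against sham and against 3 days, Slit2 at 14 days, Neo1 at 7 days and Ntng1 at 7 days against sham. Without sham replicate 4, 5 members fell at 7 days in place of 8 (6.89% of all genes were called), 4 rose and 0 fell at 3 days (21.3%), and 5 rose and 6 fell at 14 days (14.3%). Of the 8 falls at 7 days, those of Neo1, Ntng1 and Slit2 held without this library. The falls of Epha5, Epha7, Robo1, Robo2 and Sema3a were lost, so the 5 include members not called with all libraries. Without 3-day replicate 3, 1 member in place of 11 differed between 7 and 3 days, and the share of all genes called went from 13.4% to 3.01%. When edgeR was fitted to the sham and 7-day libraries alone, 0 members passed at 7 days and 1.03% of all genes did. In that fit 13 members had an unadjusted p under 0.05. The share of all genes at that unadjusted p is not given here, so nothing is read from this count. DESeq2 on all libraries called 10 members and 14.1% of all genes.

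Promoters of 4 members whose levels moved in opposite directions are shown here: Ephb4 and Sema3g, which rose at 3 and 14 days, and Slit2 and Ntng1, which fell at 7 and 14 days. Each runs from 250 bases before to 50 bases after the RefSeq transcription start (assembly GRCm38.p6), 5′ to 3′ on the gene's strand, with capitals marking the GC box GGGCGG on either strand.
Ephb4 (chr5:137349859-137350158, plus strand): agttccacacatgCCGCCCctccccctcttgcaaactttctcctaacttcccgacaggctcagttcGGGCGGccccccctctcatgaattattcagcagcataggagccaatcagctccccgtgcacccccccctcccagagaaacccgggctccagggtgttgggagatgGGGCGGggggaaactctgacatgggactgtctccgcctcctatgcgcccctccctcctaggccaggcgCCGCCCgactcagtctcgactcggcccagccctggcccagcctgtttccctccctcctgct
Sema3g (chr14:31217623-31217922, plus strand): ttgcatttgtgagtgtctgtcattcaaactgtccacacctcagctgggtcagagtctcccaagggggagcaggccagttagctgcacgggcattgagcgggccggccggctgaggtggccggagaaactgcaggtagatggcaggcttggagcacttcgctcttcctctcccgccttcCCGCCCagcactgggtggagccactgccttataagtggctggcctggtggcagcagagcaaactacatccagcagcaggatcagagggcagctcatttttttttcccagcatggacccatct
Slit2 (chr5:47982905-47983204, plus strand): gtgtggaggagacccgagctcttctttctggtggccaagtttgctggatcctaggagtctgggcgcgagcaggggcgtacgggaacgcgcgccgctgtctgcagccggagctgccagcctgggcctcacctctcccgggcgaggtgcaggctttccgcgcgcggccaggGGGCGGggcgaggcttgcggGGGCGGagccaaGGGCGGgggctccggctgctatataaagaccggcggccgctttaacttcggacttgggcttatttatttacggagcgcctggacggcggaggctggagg
Ntng1 (chr3:110143423-110143722, minus strand): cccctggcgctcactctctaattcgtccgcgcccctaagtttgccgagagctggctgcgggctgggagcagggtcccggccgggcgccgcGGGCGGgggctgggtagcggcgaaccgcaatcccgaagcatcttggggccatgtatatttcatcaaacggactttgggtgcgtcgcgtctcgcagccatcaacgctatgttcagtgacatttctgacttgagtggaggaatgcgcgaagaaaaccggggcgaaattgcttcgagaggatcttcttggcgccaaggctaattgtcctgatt
The Ephb4 window holds 4 GC boxes and 14 CpG, the Sema3g window 1 and 8, the Slit2 window 3 and 30, and the Ntng1 window 1 and 28. RefSeq promoters were matched by symbol for 40 of the 48 members, giving 47 windows. The GC box was in 68.1% of these and in 35.7% of 32851 windows of all genes; TATAAA on either strand was in 8.5% and 13.6%, and the ETS core CCGGAAG in 2.1% and 8.9%; matches of the GC box and the ETS core can share bases. The median number of CpG was 21 in members' windows and 7 in all windows. All 4 windows shown held a GC box. The 4 genes were picked by the direction of their change, so their CpG counts do not describe rising or falling members in general. Whether CpG goes with the direction of change was not tested.

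Among the ligands of the Eph receptors none was called. Efnb3, the ephrin-B with the highest level, had 14.9 ± 7.98 CPM (SD, n = 3) in sham, 15.2 ± 3.20 at 3 days, 9.52 ± 3.22 at 7 days, with 12.2 ± 4.71 at 14 days. Efnb2 (ephrin-B2, the ligand of Ephb4) had 9.39 ± 4.36 CPM in sham, 10.0 ± 1.55 at 3 days, 5.45 ± 0.63 at 7 days, with 8.93 ± 1.36 at 14 days. Efnb1 ran from 0.63 to 2.67 CPM at 7 days and from 1.51 to 3.92 in sham. The 2 A ephrins tested, Efna3 and Efna5, had group means between 1.14 and 3.61 CPM. For each of the 3 B ephrins the 7-day libraries overlapped the sham libraries.

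Ephb4, the receptor for ephrin-B2, gave one of the largest changes among the members. Its level was 0.61, 0.23 and 2.52 CPM in sham replicates 2, 3 and 4 (4, 1 and 9 counts), 5.01, 8.5 and 11 CPM at 3 days, 0.21, 0.18 and 0.94 CPM at 7 days (1, 1 and 7 counts), and 6.78, 3.74 and 4.01 CPM at 14 days. All 3-day and 14-day libraries lay above all sham and 7-day libraries, and the 7-day libraries overlapped sham. By edgeR the log2 fold change against sham was 2.99 ± 0.67 (SE) at 3 days (adjusted p = 0.00626) and 2.23 ± 0.68 at 14 days (adjusted p = 0.0498). Ephb4 fell by 4.04 ± 0.71 from 3 to 7 days (edgeR adjusted p = 0.00369) and rose by 3.29 ± 0.72 from 7 to 14 days (adjusted p = 0.0308). The rise at 3 days and the fall from 3 to 7 days passed without any 1 library. Without sham replicate 4 the 3-day and 14-day changes were 4.12 and 3.38; the 14-day call was lost without sham replicate 2 or 3, any 3-day library, 7-day replicate 1 or any 14-day library (edgeR adjusted p 0.0537 to 0.195), and the 14-to-7-day call without 7-day replicate 1 or 3 or any 14-day library (0.0834 to 0.147).

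Most endothelial markers moved the same way as Ephb4 at 3 days, between 3 and 7 days and between 7 and 14 days. Of the 14 markers, all tested, 11 rose and 0 fell at 3 days, 0 rose and 1 (Pecam1) fell at 7 days, and 5 rose and 0 fell at 14 days by edgeR. Without sham replicate 4, 14 rose at 3 days, 1 rose and 1 fell at 7 days, and 11 rose at 14 days. Between 3 and 7 days 13 of 14 fell, and between 7 and 14 days 10 of 14 rose. At 14 days against sham all 14 log2 fold changes were positive. Their summed level was 49.5 to 262.5 CPM in sham, 408.8 to 970.2 at 3 days, 59.0 to 98.0 at 7 days and 580.6 to 589.7 at 14 days. At 7 days Cldn5 was at 0 in 2 libraries and Tek, Erg and Sox17 in 1 library each, while no endothelial marker was at 0 in the other groups. The 14 fibroblast and pericyte markers summed to 68.2 to 518.8 CPM in sham, 323.2 to 946.7 at 3 days, 35.3 to 128.1 at 7 days and 636.2 to 762.4 at 14 days. At 3 days 2 of them rose and at 14 days 1, or 5 and 7 without sham replicate 4. Kcnj8 and Dpt were each at 0 in 2 of the 7-day libraries. The part of these cells in the change of Ephb4 was not tested.

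The other EphB receptors changed less. Ephb6, a member without kinase activity, had 6.21, 7.77 and 2.24 CPM in sham, 7.06, 5.76 and 10.1 at 3 days, 2.51, 0.18 and 3.08 at 7 days, with 1.96, 1.87 and 2.45 at 14 days. All 7-day libraries lay below all 3-day libraries, and 7-day and sham libraries overlapped. From 3 to 7 days Ephb6 fell by 1.97 ± 0.61 (edgeR adjusted p = 0.0448); the call was lost without any 3-day library, 7-day replicate 1 or 3 or any 14-day library (edgeR adjusted p 0.0632 to 0.191). Ephb1 had 10.8 ± 2.44 CPM (SD, n = 3) in sham, 10.1 ± 1.69 at 3 days, 6.16 ± 2.29 at 7 days, with 5.31 ± 0.16 at 14 days and was not called. Ephb2 and Ephb3, which like Ephb1 bind B ephrins, had group means from 1.74 to 3.69 CPM and were not called either.

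Epha10, a second Eph receptor without kinase activity, fell late. It had 15.3, 8.92 and 4.76 CPM in sham, 11.6, 10.3 and 16.2 at 3 days, 2.72, 2.29 and 7.09 at 7 days, with 1.66, 1.87 and 0.67 at 14 days. All 14-day libraries lay below every library of the other 3 groups, while 7-day and sham libraries overlapped. At 14 days Epha10 fell by 2.78 ± 0.56 against sham (edgeR adjusted p = 0.00654) and by 3.16 ± 0.55 against 3 days (adjusted p = 0.00328), and both calls passed with each library left out. From 3 to 7 days it fell by 1.63 ± 0.49 (edgeR adjusted p = 0.0389), a call lost without any 3-day library, 7-day replicate 1 or 3, or 14-day replicate 1 or 2 (edgeR adjusted p 0.0534 to 0.176).

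Epha5 and Epha7, receptors for A ephrins known from the mapping of axons in the brain, fell at 7 days. Epha5 had 14.5, 12.1 and 24.1 CPM in sham, 13.4, 9.56 and 14.2 at 3 days, 4.61, 6.16 and 9.23 at 7 days, with 8.89, 10.1 and 13.1 at 14 days. Epha7 had 12, 6.63 and 11.2 CPM in sham, 6.83, 4.85 and 8.74 at 3 days, 2.09, 4.58 and 3.61 at 7 days, with 7.84, 3.04 and 4.46 at 14 days. For both genes every 7-day library lay below every sham library. At 7 days Epha5 fell by 1.31 ± 0.34 (edgeR adjusted p = 0.0280) and Epha7 by 1.52 ± 0.43 (adjusted p = 0.0391). Neither call held without sham replicate 4 or 7-day replicate 1: Epha5 was also lost without 7-day replicate 3 (edgeR adjusted p 0.0680 to 0.107 over these), and Epha7 without sham replicate 2, 3-day replicate 1, 7-day replicate 4 or 14-day replicate 3 (0.0529 to 0.137).

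Epha4, which binds ephrins of both classes and guides corticospinal axons, and Epha2, a receptor for ephrin-A1, differed between injury times and were not called against sham. Epha4 had 12.4, 4.57 and 5.04 CPM in sham, 7.52, 10.6 and 13.6 at 3 days, 3.98, 1.94 and 5.22 at 7 days, with 7.99, 10.8 and 8.24 at 14 days. The 3-day libraries lay above the 7-day libraries, with a fall of 1.51 ± 0.44 (edgeR adjusted p = 0.0351) that was lost without 3-day replicate 2 or 3, 7-day replicate 1 or 3 or any 14-day library (edgeR adjusted p 0.0508 to 0.169). Epha2 had 12.6, 7.09 and 7.56 CPM in sham, 19.6, 12 and 15.8 at 3 days, 22.4, 10.9 and 10.0 at 7 days, with 4.82, 4.68 and 5.79 at 14 days. All 14-day libraries were below all others. Epha2 fell by 1.62 ± 0.37 from 3 to 14 days (edgeR adjusted p = 0.0154) and fell by 1.49 ± 0.37 from 7 to 14 days (adjusted p = 0.0496). The first call was lost without 3-day replicate 1 or 3 or any 14-day library (edgeR adjusted p 0.0613 to 0.0907), the second without sham replicate 3, any 3-day library, 7-day replicate 1 or 3 or any 14-day library (0.0580 to 0.224). Epha1, the EphA receptor with the highest level per length in sham, had 14.9 ± 4.09 CPM (SD, n = 3) in sham and 7.85 ± 2.90 at 3 days, a log2 difference of -0.94 that did not pass (edgeR adjusted p = 0.0767).

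Slit2, a secreted repellent made at the midline of the developing cord, fell at 7 and 14 days. It had 27.1, 21.9 and 16.8 CPM in sham, 20.5, 9.56 and 17.3 at 3 days, 8.17, 5.64 and 9.36 at 7 days, with 4.37, 9.35 and 5.57 at 14 days. All libraries of both later times lay below all sham libraries and below all 3-day libraries. By edgeR Slit2 fell by 1.51 ± 0.36 at 7 days (adjusted p = 0.0183) and by 1.79 ± 0.37 at 14 days (adjusted p = 0.00725), and from 3 to 14 days by 1.31 ± 0.36 (adjusted p = 0.0420). The 14-day call against sham passed without any 1 library. The 7-day call was lost on leaving out 7-day replicate 1 or 3 (edgeR adjusted p 0.0558 and 0.0577), and the call from 3 to 14 days without sham replicate 3, 3-day replicate 1 or 3, 7-day replicate 1 or 4, or 14-day replicate 1 or 3 (0.0524 to 0.206). Slit3 had 6.51 ± 4.32 CPM (SD, n = 3) in sham, 7.84 ± 2.06 at 3 days, 2.49 ± 1.25 at 7 days, with 3.33 ± 1.37 at 14 days; it fell by 1.64 ± 0.52 from 3 to 7 days (edgeR adjusted p = 0.0492), lost without any library of the 3 injury times (0.0593 to 0.166). Slit1 had 3.91 ± 2.66 CPM in sham and 8.55 ± 2.95 at 3 days and was not called.

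The Slit receptors Robo1 and Robo2 were lowest at 7 days. Robo1 had 11.7, 13.7 and 29.1 CPM in sham, 16.4, 13.5 and 23.4 at 3 days, 6.28, 7.04 and 9.36 at 7 days, with 20.8, 22.2 and 15.4 at 14 days. Robo2 had 19.5, 16.5 and 43.1 CPM in sham, 15.7, 14.0 and 28.4 at 3 days, 10.3, 11.8 and 9.09 at 7 days, with 24.3, 25.5 and 20.9 at 14 days. For both genes all 7-day libraries lay below all others, and sham replicate 4 was the highest library of the 12. At 7 days Robo1 fell by 1.23 ± 0.36 (edgeR adjusted p = 0.0418) and Robo2 by 1.33 ± 0.36 (adjusted p = 0.0320). Without sham replicate 4 the changes were -0.73 (edgeR adjusted p = 0.159) and -0.81 (adjusted p = 0.110). The Robo1 call was also lost without 3-day replicate 1, any 7-day library or any 14-day library (edgeR adjusted p from 0.0534), and the Robo2 call without any 7-day library (from 0.0553). Robo1 fell by 1.23 ± 0.35 from 3 to 7 days (edgeR adjusted p = 0.0328), lost without 3-day replicate 1 or 3, 7-day replicate 1 or 3 or 14-day replicate 1 (0.0506 to 0.181). Robo3 reached 2.88 CPM in 3-day replicate 3 and was not tested.

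Ntng1 was lower than sham at each time. It encodes netrin-G1, a membrane-anchored relative of the netrins that binds Lrrc4c rather than Dcc or Unc5 receptors. Its level was 24.8, 16.7 and 30.0 CPM in sham, 12.3, 8.19 and 14.4 at 3 days, 6.49, 4.75 and 10.6 at 7 days, with 10.4, 7.95 and 8.69 at 14 days. Every injured library lay below every sham library. Its log2 fold changes were -1.03 ± 0.33 at 3 days (edgeR adjusted p = 0.0393), -1.69 ± 0.34 at 7 days (adjusted p = 0.00789) and -1.39 ± 0.34 at 14 days (adjusted p = 0.0182). The 7-day call passed without any 1 library. The 3-day call was lost without sham replicate 2 or 4, any 3-day library or any 14-day library (edgeR adjusted p 0.0512 to 0.151), and the 14-day call without any 14-day library (0.0556 to 0.0832). Its partner Lrrc4c fell at all 3 times by edgeR, with log2 fold changes of -1.09 ± 0.34 (adjusted p = 0.0361), -1.80 ± 0.36 (adjusted p = 0.00737) and -1.60 ± 0.35 (adjusted p = 0.0112).

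The soluble netrins were not called. Ntn1, the founding netrin, had 5.93 ± 2.04 CPM (SD, n = 3) in sham, 4.50 ± 1.33 at 3 days, 5.62 ± 1.28 at 7 days, with 7.70 ± 1.03 at 14 days. Ntn4, a netrin of basement membranes, had 2.29 ± 0.77 CPM in sham and 0.72 ± 0.92 at 7 days. Ntng2, whose product binds Lrrc4, had 5.19 ± 1.76 CPM in sham and 11.4 ± 4.88 at 3 days. Of its exon length, 14.0% is shared with a gene on the same strand, 6530402F18Rik. How reads in the shared part were counted is not given in the sources used here.

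Some neuronal markers fell after injury, as Ntng1 did. Of 16 neuronal markers, all tested and none at 0 in any library, 10 fell at 3 days, 8 fell at 7 days and 3 fell at 14 days by edgeR, and 0 rose. Without sham replicate 4, 10 fell at 3 days, 7 at 7 days and 3 at 14 days. Their sum was 1775 to 3271 CPM in sham, 920.6 to 1055 at 3 days, 1072 to 1274 at 7 days and 1392 to 2041 at 14 days. The 3-day and 7-day sums lay below sham. The 14-day sums overlapped it, with 15 of 16 log2 fold changes negative at 14 days. Of the 11 members that fell against sham at 7 or 14 days, Ntng1 was also called at 3 days and the other 10 were not. A gene not called may still have changed: 3-day means were below sham for Slit2, Unc5c, Epha5 and Epha7, and above it for Dcc and Epha10. The part of neuronal RNA in the falls of Ntng1, Slit2, Dcc, Unc5c, Epha5, Epha7 and Epha10 was not tested.

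Of the netrin receptors, Dcc and Unc5c fell at 14 days and Neo1 at 7 days. Dcc, the attractive netrin receptor, had 10.9, 11 and 5.60 CPM in sham, 11.2, 5.61 and 11.7 at 3 days, 3.35, 2.99 and 4.68 at 7 days, with 4.07, 1.87 and 1.78 at 14 days. All libraries of both later times lay below all earlier ones. Dcc fell by 1.79 ± 0.45 at 14 days against sham (edgeR adjusted p = 0.0201), by 1.83 ± 0.44 from 3 to 14 days (adjusted p = 0.0204) and by 1.35 ± 0.42 from 3 to 7 days (adjusted p = 0.0470). The first was lost on leaving out 14-day replicate 2 or 3 (edgeR adjusted p 0.0922 and 0.104), the second without 3-day replicate 1 or 3 or 14-day replicate 2 or 3 (0.0695 to 0.118), and the third without sham replicate 3, 3-day replicate 1 or 3, any 7-day library, or 14-day replicate 2 or 3 (0.0514 to 0.202).

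Unc5c, a repulsive netrin receptor, had 18.8, 23.8 and 20.4 CPM in sham, 24.4, 8.80 and 23.7 at 3 days, 13.6, 10.7 and 14.0 at 7 days, with 8.29, 10.1 and 7.35 at 14 days. All 14-day and 7-day libraries lay below all sham libraries, and 3-day replicate 2 was low. The fall at 14 days was 1.29 ± 0.34 (edgeR adjusted p = 0.0260), lost without sham replicate 3 or any 14-day library (edgeR adjusted p 0.0620 to 0.121). Unc5a, Unc5b and Unc5d had sham means of 4.8, 4.43 and 6.31 CPM and were not called.

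Neo1, which binds RGMs as well as netrins, had 55.9, 40.9 and 88.2 CPM in sham, 38.0, 39.9 and 38.9 at 3 days, 23.9, 26.4 and 26.9 at 7 days, with 42.5, 46.8 and 35 at 14 days. The 7-day libraries lay below all others, and sham replicate 4 was highest. Neo1 fell by 1.26 ± 0.25 at 7 days (edgeR adjusted p = 0.00682), a call that passed without any 1 library, with changes from -1.51 to -0.92. At 3 days its log2 difference of -0.66 did not pass (edgeR adjusted p = 0.0662).

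**Figure D3:**
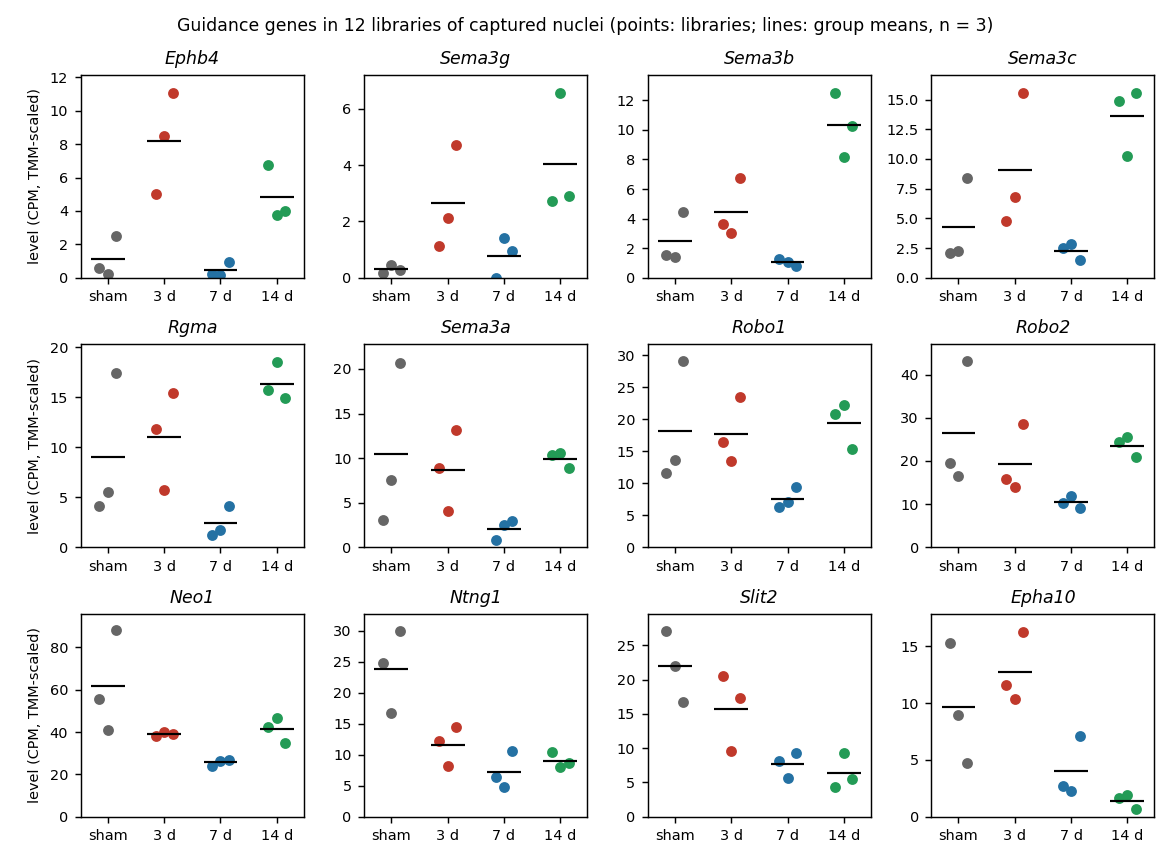
Level of 12 guidance genes (y axis, TMM-scaled CPM, each panel with its own scale from 0) in the 3 libraries of sham and of 3, 7 and 14 days after injury (x axis); points are libraries and lines are means. Ephb4, Sema3b, Sema3c and Rgma have their lowest means at 7 days. Slit2 is low at both later times, and Epha10 is low at 14 days, with 7-day libraries that overlap sham. Sham replicate 4 (rightmost sham point) is the highest sham library for Ephb4, Sema3b, Sema3c, Rgma, Sema3a, Robo1, Robo2, Neo1 and Ntng1.

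The class 3 semaphorins, secreted ligands of neuropilin and plexin receptors, showed rises at 3 and 14 days and a fall at 7 days in different members. Sema3g, known from endothelial cells, had 0.15, 0.46 and 0.28 CPM in sham (1, 2 and 1 counts), 1.14, 2.12 and 4.71 at 3 days (5, 14 and 49 counts), 0.00, 1.41 and 0.94 at 7 days (0, 8 and 7 counts), with 2.71, 6.55 and 2.90 at 14 days (18, 28 and 13 counts). All 3-day and 14-day libraries lay above all sham libraries, and the 7-day libraries overlapped sham. The log2 fold change was 3.21 ± 0.91 at 3 days (edgeR adjusted p = 0.0231) and 3.74 ± 0.91 at 14 days (adjusted p = 0.0183). With so few sham counts the sizes depend on single reads. The 3-day call was lost without sham replicate 2 (edgeR adjusted p = 0.0737) or 3-day replicate 3 (2.45, adjusted p = 0.132), and the 14-day call without sham replicate 2 or 14-day replicate 2 (0.0562 and 0.0807).

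Sema3b and Sema3c, which act through neuropilins, were highest at 14 days. Sema3b had 1.51, 1.37 and 4.48 CPM in sham, 3.64, 3.03 and 6.73 at 3 days, 1.26, 1.06 and 0.80 at 7 days, with 12.5, 8.18 and 10.2 at 14 days. All 14-day libraries lay above, and all 7-day libraries below, every other library. Sema3b rose by 2.13 ± 0.49 at 14 days against sham (edgeR adjusted p = 0.0133), fell by 2.13 ± 0.52 from 3 to 7 days (adjusted p = 0.0172) and rose by 3.32 ± 0.52 from 7 to 14 days (adjusted p = 0.0128). These calls were lost without 14-day replicate 1 (edgeR adjusted p = 0.0673), without 3-day replicate 3 or 7-day replicate 3 (0.119 and 0.0574), and without 7-day replicate 1 or 3 or 14-day replicate 1 (0.0612 to 0.0622), in that order.

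For Sema3c the levels were 2.12, 2.29 and 8.40 CPM in sham, 4.78, 6.83 and 15.6 at 3 days, 2.51, 2.82 and 1.47 at 7 days, with 14.9, 10.3 and 15.6 at 14 days. The 14-day libraries lay above all sham and 7-day libraries, and the 7-day libraries below all 3-day libraries. Sema3c fell by 2.04 ± 0.55 from 3 to 7 days (edgeR adjusted p = 0.0264) and rose by 2.6 ± 0.56 from 7 to 14 days (adjusted p = 0.0293). Its difference from sham at 14 days was 1.73 (edgeR adjusted p = 0.0548), and without sham replicate 4 it was 2.61 (adjusted p = 0.00327). The fall was lost without 3-day replicate 3 or any 7-day library (edgeR adjusted p 0.0645 to 0.190), and the rise without any 7-day or 14-day library (0.0758 to 0.130).

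Sema3a, the repellent of sensory axons that signals through Nrp1, had 3.03, 7.54 and 20.7 CPM in sham, 8.88, 4.10 and 13.2 at 3 days, 0.84, 2.47 and 2.94 at 7 days, with 10.4, 10.5 and 8.91 at 14 days. All 7-day libraries lay below all others, and sham ranged widely. Sema3a fell by 2.23 ± 0.64 at 7 days against sham (edgeR adjusted p = 0.0402) and by 2.02 ± 0.63 against 3 days (adjusted p = 0.0447). Without sham replicate 4 the first change was -1.25 (edgeR adjusted p = 0.195); it was also lost without 3-day replicate 1, any 7-day library or any 14-day library (from 0.0537). The second was lost without sham replicate 3, 3-day replicate 1 or 3, or any 7-day or 14-day library (edgeR adjusted p 0.0508 to 0.221). Sema3d, Sema3e, which binds Plxnd1, and Sema3f, a ligand of Nrp2, had group means of 0.715 to 4.37 CPM and were not called.

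Of the RGMs, ligands of neogenin that inhibit axon growth (Rgma) or serve in bone morphogenetic protein signalling (Rgmb), Rgma had 4.09, 5.49 and 17.4 CPM in sham, 11.8, 5.76 and 15.4 at 3 days, 1.26, 1.76 and 4.15 at 7 days, with 15.7, 18.5 and 14.9 at 14 days. The 7-day libraries lay below all 3-day and 14-day libraries and overlapped sham. Rgma fell by 2.15 ± 0.56 from 3 to 7 days (edgeR adjusted p = 0.0220) and rose by 2.71 ± 0.56 from 7 to 14 days (adjusted p = 0.0259). The fall was lost without 3-day replicate 1 or 3 or 7-day replicate 1 or 3 (edgeR adjusted p 0.0529 to 0.124), and the rise without 7-day replicate 1 or 3 or any 14-day library (0.0786 to 0.138). Against sham at 7 days its difference of -1.81 did not pass (edgeR adjusted p = 0.0592). Rgmb had 21.5, 26.7 and 12 CPM in sham and 34.2, 33.4 and 33.5 at 3 days, a difference of 0.74 that did not pass (edgeR adjusted p = 0.0603) although the groups did not overlap.

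Astrocyte markers differed between the groups in part. Of the 13 markers, none at 0 in any library, 3 fell and 0 rose at 7 days against sham, 4 fell from 3 to 7 days and 4 rose from 7 to 14 days by edgeR. Without sham replicate 4, 0 fell and 1 rose at 7 days against sham. Their sum was 730.1 to 5424 CPM in sham, 1614 to 2549 at 3 days, 1818 to 2044 at 7 days and 2891 to 3285 at 14 days. The 7-day sums lay within the sham range and the 3-day range, but Slc1a3 made up most of them. Its mean was 1281 CPM at 7 days, 991.5 in sham and 887.7 at 3 days. Of the 13 log2 fold changes, 12 were negative at 7 days against sham and 11 from 3 to 7 days. From 7 to 14 days 12 were positive. Sham replicate 4, which had the highest astrocyte sum, was the highest sham library for 18 of the 41 tested members, Robo1, Robo2, Neo1, Sema3a and Rgma among them, while replicate 2 was highest for 10 and replicate 3 for 13. The same shares over all tested genes are not given here, so these counts are not read as a trait of the members. Of 12 oligodendrocyte markers, none at 0 in any library, 5 fell and 0 rose at 7 days by edgeR, and 1 fell without sham replicate 4. Their sum was 911.6 to 1983 CPM in sham, 1056 to 1552 at 3 days, 635.9 to 966.9 at 7 days and 1101 to 1618 at 14 days. The part of astrocyte, oligodendrocyte, endothelial and fibroblast RNA in the 7-day levels of the members was not tested.

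Receptors of class 3 semaphorins included genes that rose at all 3 times. Of 9 receptors and co-receptors, 4 rose and 1 fell at 3 days, 2 rose and 2 fell at 7 days, and 2 rose and 1 fell at 14 days by edgeR. Over all tested genes 20.0%, 9.28% and 9.82% were called at these times, for comparison with this list and with the effectors below. Nrp1, the Sema3a receptor, rose at each time, by 0.96 ± 0.15 (adjusted p = 0.000472), 0.88 ± 0.15 (adjusted p = 0.00268) and 1.10 ± 0.15 (adjusted p = 0.00039) by edgeR, from a sham mean of 102 CPM to 198, 187 and 217. Nrp2, the Sema3f receptor, rose by 0.64 ± 0.18, 0.75 ± 0.18 and 0.85 ± 0.18 (edgeR adjusted p = 0.0221, 0.0193 and 0.00848). Plxna1 rose by 1.79 ± 0.34 and Plxnd1 by 1.63 ± 0.42 at 3 days (edgeR adjusted p = 0.00229 and 0.0142). Plxna4 fell by 1.10 ± 0.20 at 3 days and by 0.77 ± 0.20 at 14 days (edgeR adjusted p = 0.00175 and 0.0243). The adhesion molecules Nrcam and L1cam, co-receptors in neurons, fell at 7 days, with log2 fold changes of -1.26 ± 0.21 and -1.35 ± 0.34 (edgeR adjusted p = 0.00318 and 0.0242). Of 16 semaphorin effectors, 2 rose at 3 days, 1 rose and 1 fell at 7 days and 1 rose and 1 fell at 14 days; Mical1, an actin-oxidising enzyme downstream of plexins, rose by 1.83 ± 0.27, 1.49 ± 0.27 and 1.45 ± 0.27 (edgeR adjusted p = 0.000395, 0.00496 and 0.00423).

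Intracellular partners of the other receptors changed in both directions. Of all tested genes 20.0%, 9.28% and 9.82% were called by edgeR at 3, 7 and 14 days, and the 3-day counts below were near that share. Of 15 Slit and Robo partners, 1 rose and 2 fell at 3 days, 1 rose and 3 fell at 7 days, and 2 rose and 3 fell at 14 days by edgeR. Srgap2, a Slit-Robo GTPase-activating protein, fell at 3 and 14 days, with changes of -0.77 ± 0.15 and -0.69 ± 0.15 (edgeR adjusted p = 0.00314 and 0.0114). Of 16 tested netrin partners, 1 rose and 3 fell at 3 days, 0 rose and 2 fell at 7 days and 0 rose and 3 fell at 14 days, with Elmo1, a Rac activator with Dock1, at -1.0 ± 0.18 at 3 days and -1.02 ± 0.18 at 14 days (edgeR adjusted p = 0.00164 and 0.00311). Of 20 Eph and ephrin effectors, 2 rose and 1 fell, 2 rose and 2 fell, and 1 rose and 3 fell at the 3 times. Inppl1, a lipid phosphatase that binds EphA2, rose by 1.59 ± 0.28, 0.98 ± 0.28 and 1.09 ± 0.28 (edgeR adjusted p = 0.0014, 0.0397 and 0.0228), and Chn1, a Rac-inactivating effector of EphA4, fell at 3 and 7 days, with changes of -0.75 ± 0.23 and -1.18 ± 0.24 (edgeR adjusted p = 0.0343 and 0.00821).

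Small GTPases and actin regulators, on which these receptors converge, gave 3 rises and 1 fall among 12 genes at 3 days, 2 and 1 at 7 days, and 2 and 1 at 14 days by edgeR. The shares of all tested genes called were 20.0%, 9.28% and 9.82%. Iqgap1, a scaffold for Rac1 and Cdc42, rose by 2.58 ± 0.20, 1.74 ± 0.20 and 1.61 ± 0.20 (edgeR adjusted p = 2.55e-06, 0.000179 and 0.000213), from a sham mean of 59.7 CPM to 356, 200 and 182. Cfl1, the actin-severing protein cofilin, rose by 1.30 ± 0.20 at 3 days and 1.24 ± 0.20 at 14 days (edgeR adjusted p = 0.000556 and 0.00164), and Rock2, a kinase that acts on actin and myosin, fell by 0.89 ± 0.22 at both 7 and 14 days (edgeR adjusted p = 0.0214 and 0.0187). Some markers of monocyte-derived macrophages rose as well: of 11 tested, 7 rose and 0 fell at 3 days, 2 (Fn1 and Lyz2) rose at 7 days, and 4 rose and 1 (F13a1) fell at 14 days by edgeR. The 14 genes of the list summed to 166.5 to 270.8 CPM in sham, 1246 to 1761 at 3 days, 336.0 to 709.2 at 7 days and 858.5 to 958.8 at 14 days, with F10 at 0 in all sham libraries, and Ly6c2 and Chil3 at 0 in 2 of them. Their part in the rises of Nrp1, Mical1, Inppl1 and Iqgap1 was not tested.

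On GRCm38, Ephb4 lies at chr5:137350109-137378669 (plus strand, 5 annotated transcripts), Slit2 at chr5:47983138-48307733 (plus, 23 transcripts), Sema3g at chr14:31217860-31230352 (plus, 1 transcript), Ntng1 at chr3:109780040-110144011 (minus, 13 transcripts), Neo1 at chr9:58874687-59036441 (minus, 6 transcripts) and Epha10 at chr4:124880899-124917800 (plus, 3 transcripts). The strand setting of the counting is not given in the sources used here, so reads of a gene and of one on the opposite strand cannot be told apart. Such overlaps covered 0.7% of the exon length of Ephb4 (with Zan), 1.1% of Epha10, 4.7% of Rgma and 0.6% of Unc5c.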

How the data were processed

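Counts per gene in 12 libraries, deposited by the authors, were made with featureCounts 1.4.6-p3 on GRCm38/mm10, per the submitters' processing notes. Neither the aligner nor the strand setting is given in the sources used here. RPKM values of the same libraries, also deposited by the authors, served for levels between genes and in limma. Both tables hold 49585 genes, and totals were 4003480 to 10670804 counts. Groups came from the sample titles.

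All counts were fitted together in edgeR 4.0.16 (R 4.3.3) with TMM scaling, filterByExpr (18451 genes left) and the quasi-likelihood F-test for 6 pairwise contrasts and any difference. Calls are Benjamini-Hochberg adjusted p-values under 0.05 across the 18451 genes, and a standard error is the size of the log2 change over the root of its F. The other settings tried were size factors by median ratio, no filter on low counts, DESeq2 1.42.0, a stricter filter, the replicate number as a block, a fit of the compared groups alone, limma 3.58.1 on log2(RPKM + 1) and log2(RPKM + 0.1), and each library left out. The procedure was tested on simulated data. Levels in CPM were scaled by TMM for members and not for marker sums.

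Values and tests are given for members called in at least 1 test; of the other members, up to 3 per family with the highest mean RPKM are given as values, and from each list of partners up to 4 called genes with the smallest adjusted p in each comparison with sham are named. The rule for members uses gene symbols and no measured value, but the families, partner lists and marker lists were chosen with earlier results of these data known. Same-numbered libraries of different groups did not deviate together (correlations of deviations from group means between -0.30 and 0.07 over 13 pairs), and nothing in the labels pairs them. Promoter windows came from RefSeq (GRCm38.p6).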

Additional observations from a re-analysis of the deposited data

Results flagged for a closer look

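The members below differed between 2 times after injury by edgeR's quasi-likelihood test of the difference itself, so that their change against sham was not the same at both times. From 3 to 7 days the log2 differences were -1.35 for Dcc, -1.63 for Epha10, -1.51 for Epha4, -4.04 for Ephb4, -1.97 for Ephb6, -2.15 for Rgma, -1.23 for Robo1, -2.02 for Sema3a, -2.13 for Sema3b, -2.04 for Sema3c and -1.64 for Slit3. From 3 to 14 days they were -1.83 for Dcc, -3.16 for Epha10, -1.62 for Epha2 and -1.31 for Slit2. From 7 to 14 days they were -1.49 for Epha2, 3.29 for Ephb4, 2.71 for Rgma, 3.32 for Sema3b and 2.6 for Sema3c. Without 3-day replicate 3, Ephb4 was the only one of the 11 falls from 3 to 7 days that still passed, and 3.01% of all genes did in place of 13.4%. Without 7-day replicate 1, 7-day replicate 3 or 14-day replicate 1, 0 members passed from 7 to 14 days by edgeR, and 6, 7 and 1 of all tested genes passed. In these fits 13, 13 and 14 members had an unadjusted p under 0.05. The shares of all genes at that unadjusted p are not given here, so nothing is read from these counts. DESeq2 on all libraries called 8 members and 5.89% of all genes.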

How the results depend on the processing

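No call reversed under any alternative. Of 468 values of the 39 calls with a library left out, 299 still passed and 169 did not; of 300 under the other alternatives, 236 passed and 64 did not. All 39 passed under DESeq2 and without the filter, 38 with median-ratio size factors, 27 of 28 testable with the stricter filter and 27 of 38 in fits of the compared groups alone; with limma 19 passed on log2(RPKM + 1) and 17 on log2(RPKM + 0.1).

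Counts of members called moved by over 1.5 times as follows, with the share of all genes called under the same setting in parentheses. At 3 days against sham, from 3 (20.0%), they were 6 with DESeq2 (23.7%), 5 without the filter (12.8%), 1 with the stricter filter (24.5%) and 1 in the fit of the compared groups alone (10.6%). At 7 days, from 8 (9.28%), they were 0 by edgeR in that fit (1.03%), and 2 with limma at pseudocounts of 1 (6.16%) and 0.1 (5.79%). The edgeR fit had 13 members at an unadjusted p under 0.05, with no share of all genes given beside it. At 14 days, from 8 (9.82%), they were 5 with the stricter filter (10.9%) and 5 with limma on log2(RPKM + 0.1) (8.82%). From 3 to 7 days, from 11 (13.4%), they were 7 with the stricter filter (15.9%) and 3 with limma at pseudocounts of 1 (10.5%) and 0.1 (9.18%). From 3 to 14 days, from 4 (7.31%), they were 7 with DESeq2 (11%), 8 without the filter (5.99%), 10 with the compared groups alone (28.6%) and 2 with limma on log2(RPKM + 0.1) (5.46%). From 7 to 14 days, from 5 (2.19%), they were 8 with DESeq2 (5.89%), 11 without the filter (4.58%), 2 with the stricter filter (2.26%) and 9 with the compared groups alone (10.8%). For any difference, from 16 (26.4%), they were 25 without the filter (20.7%) and 10 with limma on log2(RPKM + 0.1) (20.2%). Apart from the smaller number of genes or libraries entering some fits, the cause was not tested.

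With 1 library left out the counts ran from 1 to 7 at 3 days (9.95% to 21.3% of all genes), 2 to 9 at 7 days (4.23% to 16.3%), 3 to 11 at 14 days (3.58% to 14.3%), 1 to 19 from 3 to 7 days (3.01% to 23.3%), 1 to 9 from 3 to 14 days (2.32% to 13.5%), 0 to 9 from 7 to 14 days (0.00529% to 9.11%) and 9 to 22 for any difference (15.6% to 34.4%). The count of 0 came from edgeR without 7-day replicate 1 or 3 or 14-day replicate 1. There 13 or 14 members had an unadjusted p under 0.05, again with no share of all genes beside it. With the replicate number as a block, 30 of the 39 calls passed and 9 did not, and 9 members were called from 7 to 14 days (8.71% of all genes); the numbers are shared labels that do not pair the libraries.

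Depth limits the members of low level: 7 were not tested, and the changes of Ephb4 and Sema3g rest on 14 and 4 sham counts in all.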
